A study of Mus musculus with 22 samples.

Results

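Inflammasomes are cytosolic complexes that turn the sensing of microbial or danger signals into caspase activation, interleukin release and lytic cell death. A sensor such as NLRP3, NLRC4 or AIM2 assembles, usually through the adaptor ASC (encoded by Pycard), to activate caspase-1, which matures IL-1β and IL-18 and cleaves gasdermin D to form membrane pores. NAIP proteins are the receptors upstream of NLRC4, with NAIP2 binding the rod protein of bacterial type III secretion systems and NAIP5 and NAIP6 binding flagellin, while caspase-11 (encoded by Casp4) binds cytosolic lipopolysaccharide directly. The genes described here are 10 inflammasome sensors and effectors, namely Nlrp3, Nlrc4, Naip2, Naip5, Naip6, Aim2, Pycard, Casp1, Casp4 and Gsdmd. They were chosen by name, and all 10 were found among the 34047 genes of the count table.

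The study profiled conventional dendritic cells (cDCs) of Tbx21RFP-cre mice, in which red fluorescent protein (RFP) reports expression of the transcription factor T-bet. Mice of both sexes, 6 to 10 weeks old, received no treatment, and all groups carry the same reporter allele. XCR1+ cDC1s, RFP+ (T-bet+) cDC2s and RFP- (T-bet-) cDC2s were sorted after exclusion of CD64+, Ly6C+ and lymphoid cells, and cells were pooled from 2 mice for each RNA-seq library. RNA-seq covered spleen, at 3 libraries a subset, and mesenteric lymph node (MLN), where cDC1s had 3 libraries, T-bet+ cDC2s 2 and T-bet- cDC2s 2. ATAC-seq, which reports chromatin open to a transposase, covered the same subsets of spleen with 2 libraries each of 50000 cells.

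The RNA-seq libraries held 20993220 to 29006549 reads on genes, and the ATAC-seq libraries held 7270164 to 10081555 reads in windows of 150 bases around peak summits. Levels are given as CPM (a gene's reads scaled to library size, with TMM factors), and differences as log2 fold changes ± SE with Benjamini-Hochberg adjusted p-values of edgeR's quasi-likelihood test over all genes, for which 0.05 was the threshold. The sorted subsets carried their defining transcripts. Summed cDC1 markers were at 1207 to 3343 CPM in cDC1s and 81.5 to 213 CPM in cDC2s, and Tbx21, which encodes T-bet, was at 17.2 to 24.9 CPM in spleen T-bet+ cDC2s against 0.289 to 2.38 CPM in spleen T-bet- cDC2s. Summed T-bet+ cDC2 markers were at 502 to 565 CPM in T-bet+ and 69.7 to 85.2 CPM in T-bet- cDC2s of the spleen. In the MLN they were closer, at 218 to 230 and 150 to 181 CPM, while summed T-bet- cDC2 markers were at 113 to 231 and 1274 to 1664 CPM. MLN T-bet- libraries held 0.538 and 0.918 CPM of Tbx21. The MLN T-bet+ libraries held 7.19 and 2.93 CPM of Tbx21, and replicate 2, with the lower value, also stood apart in the markers of cDC1s and cDC2s. It held 34 CPM of Xcr1 and 8.75 CPM of Clec9a, both cDC1 markers, against 5.19 and 0.263 CPM in replicate 1. It also held 219 CPM of Sirpa and 18.9 CPM of Itgam, both cDC2 markers, against 579 and 55.1 CPM. Spleen T-bet- cDC2s held 9.20, 1.95 and 7.93 CPM of Clec9a and 12.8, 7.09 and 10.3 CPM of Xcr1. Spleen T-bet+ cDC2s held 0.0792, 0.263 and 0.0415 CPM and 6.89, 7.01 and 4.44 CPM. The summed cDC1 markers of these 2 subsets overlapped, at 81.5 to 146 and 95.1 to 167 CPM. Monocyte markers were highest in T-bet- cDC2s as a sum, but not gene by gene. Their sum over 7 genes was 7025 to 10986 CPM in spleen T-bet- cDC2s, 186 to 262 CPM in T-bet+ cDC2s and 878 to 1381 CPM in cDC1s, and Lyz2 made up most of it, at 6776 to 10616 CPM in the T-bet- libraries. The same sum was 7047 to 10816 CPM in MLN T-bet- cDC2s, 238 to 748 CPM in MLN T-bet+ cDC2s and 316 to 552 CPM in MLN cDC1s, and 9 macrophage markers summed to 1006 to 1399 CPM in spleen T-bet- against 436 to 525 CPM in spleen T-bet+ cDC2s. In the spleen, the chemokine receptor gene Ccr2 was at 123 to 342 CPM in T-bet-, 1.47 to 2.89 CPM in T-bet+ and 24.9 to 67.7 CPM in the cDC1 libraries. Fcgr1, which encodes the Fc receptor CD64, was at 5.36 to 7.92, 0.413 to 0.832 and 0 to 0.435 CPM in the same order. Ly6c2, a gene that defines classical monocytes, was at 1.95 to 4.05, 1.45 to 2.02 and 3.50 to 5.61 CPM. Chil3 was at 9.71 to 11.4, 6.10 to 10.8 and 2.47 to 5.66 CPM. Fn1 was at 1.80 to 6.72, 0.525 to 2.08 and 1.65 to 2.03 CPM, and Vcan at 0 to 0.227, 0.225 to 0.706 and 0 CPM. The part of these markers in the results on T-bet- cDC2s was not tested. In bulk samples such as these, fewer cells that express a gene and less RNA per cell cannot be told apart. A difference between MLN and spleen cannot be told apart from any batch in which a tissue's libraries were made. The sort for RNA-seq also did not split MLN subsets into the migratory and resident DCs that the paper gates elsewhere.

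Sequences of 5 accessible windows are shown first, because their accessibility changed between subsets at the genes whose transcripts are described below. The first lies at the start of Nlrc4 (chr17:74459114-74459263, minus strand, centred 80 bases upstream of the RefSeq start), and the second in an intron of Naip2 (chr13:100183234-100183383, minus strand). The next pair lie upstream of and within Nlrp3 (chr11:59540233-59540382 and chr11:59554263-59554412, plus strand), and the last in an intron of Aim2 (chr1:173427442-173427591, plus strand). Coordinates are of GRCm38, each sequence runs 5′ to 3′ on the strand of the gene, and capitals mark matches to the C/EBP string TTGCNNAA on either strand. Other windows that changed are not printed. Among them, those at Nlrc4 (18447 bases downstream of the start) and Casp1 (1709 bases downstream) hold no match to this string.
Nlrc4 start window: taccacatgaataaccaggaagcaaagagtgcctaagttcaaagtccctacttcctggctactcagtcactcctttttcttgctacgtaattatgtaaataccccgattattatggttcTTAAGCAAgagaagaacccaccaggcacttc
Naip2 intron window: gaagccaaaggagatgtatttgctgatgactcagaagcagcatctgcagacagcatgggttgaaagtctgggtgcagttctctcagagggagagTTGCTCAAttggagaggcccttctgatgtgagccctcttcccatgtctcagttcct
Nlrp3 upstream window: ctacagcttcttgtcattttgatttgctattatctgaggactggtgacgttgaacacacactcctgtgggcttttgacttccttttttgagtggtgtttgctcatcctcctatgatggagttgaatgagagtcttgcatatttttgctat
Nlrp3 intron window: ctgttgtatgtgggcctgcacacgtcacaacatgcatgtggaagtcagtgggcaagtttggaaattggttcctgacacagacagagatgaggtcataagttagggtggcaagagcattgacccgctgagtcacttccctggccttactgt
Aim2 intron window: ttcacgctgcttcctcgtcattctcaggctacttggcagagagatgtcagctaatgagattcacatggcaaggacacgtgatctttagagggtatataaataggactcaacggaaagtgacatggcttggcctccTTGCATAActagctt

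Naip2 was the member that separated the cDC2 subsets of the spleen. T-bet- cDC2s held the most, T-bet+ cDC2s and cDC1s had overlapping lower levels, and an intronic window at the gene was likewise most accessible in T-bet- cDC2s. Naip2 lies on chromosome 13 from 100144063 to 100202092 on the minus strand, in a cluster with Naip5 (100211739 to 100246323) and Naip6 (100281121 to 100317674). Its level in spleen T-bet- cDC2s was 47.8, 30.5 and 32.0 CPM in the 3 libraries, against 6.26, 10.4 and 6.85 CPM in T-bet+ cDC2s and 8.14, 11.4 and 11.2 CPM in cDC1s. All 3 T-bet- libraries were above all T-bet+ and cDC1 libraries, which overlapped each other. Naip2 was 4.68-fold lower in T-bet+ cDC2s than in the T-bet- subset (log2 fold change -2.23 ± 0.31, adjusted p = 0.0038) and 3.58-fold higher in T-bet- cDC2s than in cDC1s (1.84 ± 0.31, adjusted p = 0.00307). The T-bet+ against cDC1 difference was -0.38 ± 0.30 (adjusted p = 0.451). Naip2 was the only 1 of the 10 members to pass in the comparison of the cDC2 subsets, where 5.38% of the 14377 genes tested passed, 3.44% lower and 1.95% higher in T-bet+ cDC2s. It passed under all 17 alternatives run for that comparison, at log2 fold changes of -2.49 to -2.00. The part of monocyte-marker transcripts in this difference was not tested.

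In the MLN the same gene was less cleanly divided. T-bet- cDC2s held 44.8 and 32.6 CPM of Naip2, T-bet+ cDC2s 17.7 and 33.8 CPM, and cDC1s 8.40, 16.4 and 10.9 CPM. The ranges of the cDC2 subsets overlapped, and both lay above the cDC1 range. The difference between the cDC2 subsets was -0.63 ± 0.43 (adjusted p = 0.722), while T-bet- cDC2s were higher than cDC1s by 1.78 ± 0.39 (adjusted p = 0.037), a call lost without either T-bet- library or without cDC1 replicate 1 or 3 (adjusted p of 0.0781 to 0.27). T-bet+ cDC2s of the MLN held more Naip2 than those of the spleen (1.71 ± 0.37, adjusted p = 0.021). The cDC2 difference was larger in spleen than in MLN by -1.64 ± 0.53 on the log2 scale, which did not pass for the difference between tissues (adjusted p = 0.927). Leaving out MLN T-bet+ replicate 2, the library with the higher Naip2 and with the higher Xcr1 and Clec9a and lower Sirpa and Itgam, gave a tissue difference of 1.16 (adjusted p = 0.409), and that call was also lost without spleen T-bet+ replicate 1 (adjusted p = 0.091) or 3 (adjusted p = 0.073).

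The flagellin receptors did not pass between any pair of subsets. Naip5 was at 33.8, 15.0 and 18.4 CPM in spleen T-bet- cDC2s, 10.2, 13.9 and 9.80 CPM in T-bet+ cDC2s and 12.7, 20.7 and 31.4 CPM in cDC1s. The T-bet- libraries were above the T-bet+ libraries without overlap, but cDC1s spanned both, and the cDC2 difference was -0.98 ± 0.41 (adjusted p = 0.233). Naip6 was at 22.7, 8.43 and 12.5 CPM in T-bet- cDC2s, 7.09, 9.56 and 5.56 CPM in T-bet+ cDC2s and 8.06, 21.4 and 21 CPM in cDC1s, with overlapping ranges in all pairs (-0.97 ± 0.47 between cDC2 subsets, adjusted p = 0.314). In the MLN, Naip5 was at 33.3 and 28.1 CPM in T-bet- cDC2s, 23.2 and 21.4 CPM in the T-bet+ subset and 18.2, 13.3 and 15.5 CPM in cDC1s. These 3 ranges did not overlap, but no pair passed, the nearest being T-bet- cDC2s over cDC1s (1.03 ± 0.26, adjusted p = 0.0647), which DESeq2 called. Naip6 was at 10.9 to 20.5 CPM over all 7 MLN libraries. These genes are near-identical copies in part. Of all 50-base stretches of their exons, 19.1% of Naip2, 36.9% of Naip5 and 21.5% of Naip6 occur in another gene, mainly other Naip genes, so the split of reads among them is uncertain.

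Nlrc4, the platform on which NAIP receptors build an inflammasome, was higher in both cDC2 subsets than in cDC1s and did not pass between the cDC2 subsets. It lies on chromosome 17 from 74425438 to 74459142 on the minus strand. Spleen cDC1s held 2.19, 2.92 and 3.05 CPM, T-bet+ cDC2s 16.2, 22.9 and 24.2 CPM, and T-bet- cDC2s 27.4, 20.3 and 24.8 CPM. Every cDC2 library was above every cDC1 library, and the cDC2 subsets overlapped. Nlrc4 was 7.77-fold higher in T-bet+ cDC2s (2.96 ± 0.28, adjusted p = 0.000104) and 8.89-fold higher in T-bet- cDC2s (3.15 ± 0.29, adjusted p = 7.47e-05) than in cDC1s, and differed by -0.19 ± 0.26 between the cDC2 subsets (adjusted p = 0.74). Both comparisons with cDC1s passed under all 17 alternatives. In the MLN, cDC1s held 5.48, 1.73 and 4.73 CPM, T-bet+ cDC2s 37.3 and 19.2 CPM and T-bet- cDC2s 15.5 and 16.7 CPM. T-bet+ cDC2s were higher than cDC1s by 2.84 ± 0.51 (adjusted p = 0.0181). That call was lost without either T-bet- library, T-bet+ replicate 1 or cDC1 replicate 3 (adjusted p of 0.0505 to 0.0992), and the T-bet- difference of 2.06 ± 0.50 missed the threshold (adjusted p = 0.0551).

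Casp1, which encodes the protease that NLRC4 and other sensors activate, had a similar order. It lies on chromosome 9 from 5298517 to 5307265. Spleen cDC1s held 22.4, 18.0 and 30.2 CPM, T-bet+ cDC2s 61.2, 82.2 and 64.0 CPM, and T-bet- cDC2s 96.3, 90.6 and 67.7 CPM. The cDC1 range lay below both cDC2 ranges, which overlapped. Casp1 was 2.94-fold higher in T-bet+ cDC2s (1.56 ± 0.27, adjusted p = 0.00303) and 3.61-fold higher in T-bet- cDC2s (1.85 ± 0.27, adjusted p = 0.00131) than in cDC1s, under all 17 alternatives, and the cDC2 subsets differed by -0.29 ± 0.26 (adjusted p = 0.604). In the MLN, cDC1s held 25.3, 48.4 and 46.6 CPM, T-bet+ cDC2s 96.5 and 131 CPM and T-bet- cDC2s 87.4 and 82.0 CPM. The T-bet+ cDC2s were higher than cDC1s by 1.55 ± 0.30 (adjusted p = 0.0255), a call lost when any MLN library but cDC1 replicate 1 was left out (adjusted p of 0.0536 to 0.0912) and in a fit without T-bet- cDC2s (adjusted p = 0.0569). For T-bet- cDC2s the difference of 1.16 ± 0.30 did not pass (adjusted p = 0.0691).

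**Figure D1:**
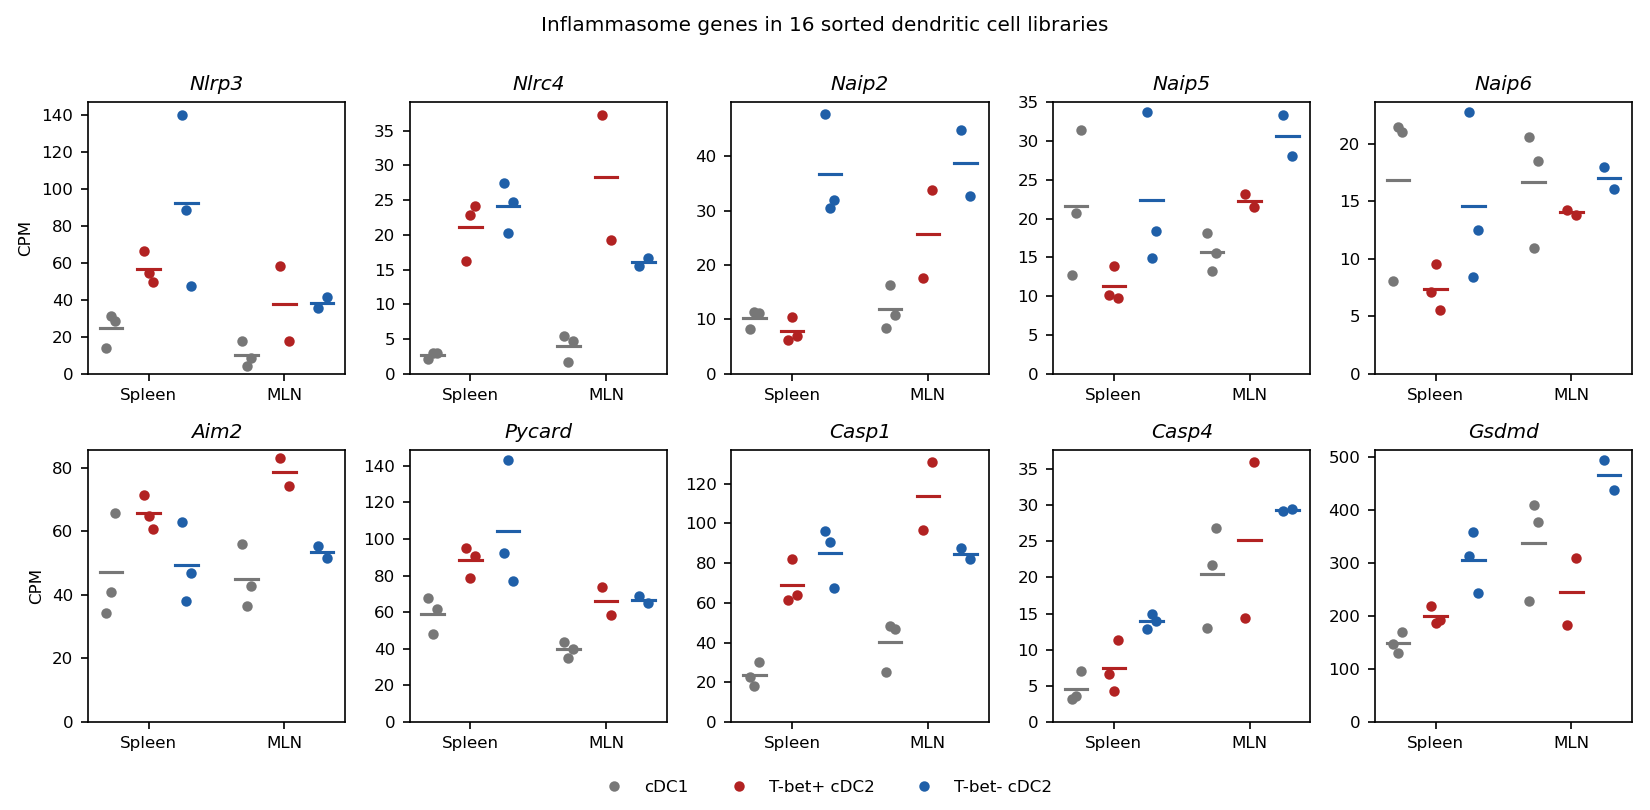
Level (CPM, linear axes from 0) of the 10 genes in each of the 16 RNA-seq libraries of spleen and MLN. Points are libraries, horizontal lines are group means, and colours give cDC1s (grey), T-bet+ cDC2s (red) and T-bet- cDC2s (blue). Nlrc4 and Casp1 are low in cDC1s of both tissues, and Naip2 in the spleen is high in T-bet- cDC2s alone.

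Nlrp3, a sensor of potassium efflux and membrane damage, was higher in T-bet- cDC2s than in cDC1s of the spleen, with a wide spread. It lies on chromosome 11 from 59541568 to 59566956. Its level was 140, 88.5 and 47.7 CPM in T-bet- cDC2s, 66.3, 54.4 and 49.6 CPM in T-bet+ cDC2s and 14.2, 31.2 and 28.7 CPM in cDC1s. All cDC2 libraries were above all cDC1 libraries, and T-bet- replicate 3 was below each T-bet+ library. The T-bet- difference from cDC1s was 1.9 ± 0.42 (adjusted p = 0.0137), the T-bet+ difference was 1.2 ± 0.41 (adjusted p = 0.0769), and the cDC2 subsets differed by -0.70 ± 0.41 (adjusted p = 0.413). The T-bet- difference missed the threshold in a fit of the libraries of those subsets alone (adjusted p = 0.0524). In the MLN, T-bet+ cDC2s held 58.3 and 17.6 CPM, T-bet- cDC2s 35.5 and 41.4 CPM and cDC1s 17.8, 4.34 and 8.27 CPM. No comparison passed in the main fit, while DESeq2 called Nlrp3 higher in both MLN cDC2 subsets than in cDC1s.

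Casp4 and Gsdmd, the lipopolysaccharide-binding caspase and the pore-forming executor, were higher in T-bet- cDC2s than in cDC1s of the spleen, and in cDC1s both were higher in the MLN than in the spleen. Casp4 lies directly downstream of Casp1 (chromosome 9, 5308828 to 5336783), with 1562 bases between the genes, and Gsdmd lies on chromosome 15 from 75862327 to 75867408. Casp4 was at 12.9, 15.0 and 13.9 CPM in spleen T-bet- cDC2s, 6.58, 4.31 and 11.3 CPM in T-bet+ cDC2s and 3.20, 3.54 and 7.06 CPM in cDC1s. T-bet- libraries stood above both other subsets, which overlapped. The T-bet- difference from cDC1s was 1.60 ± 0.43 (adjusted p = 0.0336) and was lost when any of 5 libraries was left out, namely T-bet- replicate 1 or 2, T-bet+ replicate 1 or cDC1 replicate 1 or 2 (adjusted p up to 0.13). Gsdmd was at 314, 359 and 244 CPM in T-bet- cDC2s, 219, 186 and 193 CPM in T-bet+ cDC2s and 147, 130 and 169 CPM in cDC1s. The 3 ranges did not overlap, and T-bet- cDC2s passed against cDC1s (1.04 ± 0.20, adjusted p = 0.00704). Against T-bet+ cDC2s the Gsdmd difference was -0.62 ± 0.20 (adjusted p = 0.125), which passed only without T-bet- replicate 3 (-0.84, adjusted p = 0.0246).

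In cDC1s of the MLN, Casp4 was at 13.0, 21.8 and 26.8 CPM, 4.47-fold above the spleen (2.16 ± 0.45, adjusted p = 0.00944), and Gsdmd was at 228, 409 and 377 CPM, 2.27-fold above the spleen (1.18 ± 0.26, adjusted p = 0.0123). No MLN cDC1 library overlapped a spleen cDC1 library for either gene. MLN cDC1 replicate 1, the lowest of its group for both genes, stood apart in Xcr1 as well. It held 1219 CPM of Xcr1, against 445 and 581 CPM in replicates 2 and 3. Casp4 and Gsdmd were the only 2 of the 10 members to pass in cDC1s, where 11.7% of 16795 genes passed between tissues. Both calls were lost without spleen cDC1 replicate 1 or 2 (adjusted p of 0.0588 and 0.0574 for Casp4, 0.0599 and 0.0638 for Gsdmd), and that of Gsdmd also without MLN cDC1 replicate 2 or 3 (0.0627 and 0.0524). In T-bet+ cDC2s, Casp4 was at 14.4 and 35.9 CPM in the MLN (1.76 ± 0.47 over the spleen, adjusted p = 0.0459). Casp4 and Naip2 were the 2 members to pass there, against 5.09% of genes, and without MLN T-bet+ replicate 2 neither did (adjusted p = 0.555 for Casp4), and the number of genes called fell from 855 to 36. The part of the cDC1 markers of that library in these results was not tested. The Casp4 call was also lost without spleen T-bet+ replicate 1 or 2, either MLN T-bet- library, MLN cDC1 replicate 2 or 3 or spleen cDC1 replicate 2 (adjusted p of 0.0579 to 0.145). T-bet- cDC2s of the MLN held 29.1 and 29.5 CPM of Casp4 and 494 and 438 CPM of Gsdmd, and no member passed between tissues in that subset, where 5.95% of genes did.

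Aim2, the sensor of cytosolic double-stranded DNA, and Pycard, the shared adaptor, did not pass in any comparison of the main fits. DESeq2 called Pycard higher than in cDC1s in spleen T-bet-, MLN T-bet+ and MLN T-bet- cDC2s, and Aim2 in MLN T-bet+ cDC2s. Aim2 was at 71.3, 65.0 and 60.6 CPM in spleen T-bet+ cDC2s, 63.0, 38.2 and 46.9 CPM in T-bet- cDC2s and 34.4, 41.0 and 65.8 CPM in cDC1s, and the 3 ranges overlapped (0.41 ± 0.29 between the cDC2 subsets, adjusted p = 0.503). In the MLN it was at 83.0 and 74.2 CPM in T-bet+ cDC2s, above both other subsets without overlap (55.3 and 51.5 CPM in T-bet- cDC2s, 36.3 to 56.0 CPM in cDC1s), with adjusted p of 0.652 and 0.114. The gene spans 173350879 to 173466040 on chromosome 1 and overlaps Cadm3 on the other strand, and strand-specific counting is not stated. Pycard (chromosome 7, 127989708 to 127993867, minus strand) was at 92.4, 143 and 77.0 CPM in spleen T-bet- cDC2s, 95.2, 78.8 and 90.9 CPM in T-bet+ cDC2s and 67.8, 48.1 and 61.7 CPM in cDC1s. Its cDC2 libraries stood above its cDC1 libraries in both tissues, by 0.58 ± 0.27 for spleen T-bet+ (adjusted p = 0.174) and 0.82 ± 0.27 for spleen T-bet- cDC2s (adjusted p = 0.0692). Pycard overlaps Gm45205 on the other strand, and 11.7% of its 50-base exon stretches occur in another gene.

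Counted over the list, 6 of the 10 members were higher in spleen T-bet- cDC2s than in cDC1s and none was lower. Of all genes tested, 15.9% passed in that comparison, 9.65% higher and 6.20% lower. For T-bet+ cDC2s against cDC1s, 2 members passed (Nlrc4 and Casp1, both higher) against 18.2% of genes. In the MLN, no member passed between the cDC2 subsets, and the share of genes that passed was 0%, with 1444 genes at an unadjusted p under 0.05, among them Gsdmd of the 10 members. DESeq2 called 392 genes there and no member. Against MLN cDC1s, 2 members passed for T-bet+ cDC2s (6.22% of genes) and 1 for T-bet- cDC2s (5.79%), and these MLN counts moved with the test. DESeq2 called 5 (Aim2, Casp1, Nlrc4, Nlrp3 and Pycard) and 6 members (Casp1, Naip2, Naip5, Nlrc4, Nlrp3 and Pycard) respectively, all higher in the cDC2 subset. A fit with a block on the number in the library names called 6 members in each comparison. Tested directly, no member's subset difference differed between spleen and MLN, where 0.00595% (T-bet+ over T-bet-), 0.0893% (T-bet+ over cDC1) and 0.0357% (T-bet- over cDC1) of 16795 genes passed.

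**Figure D2:**
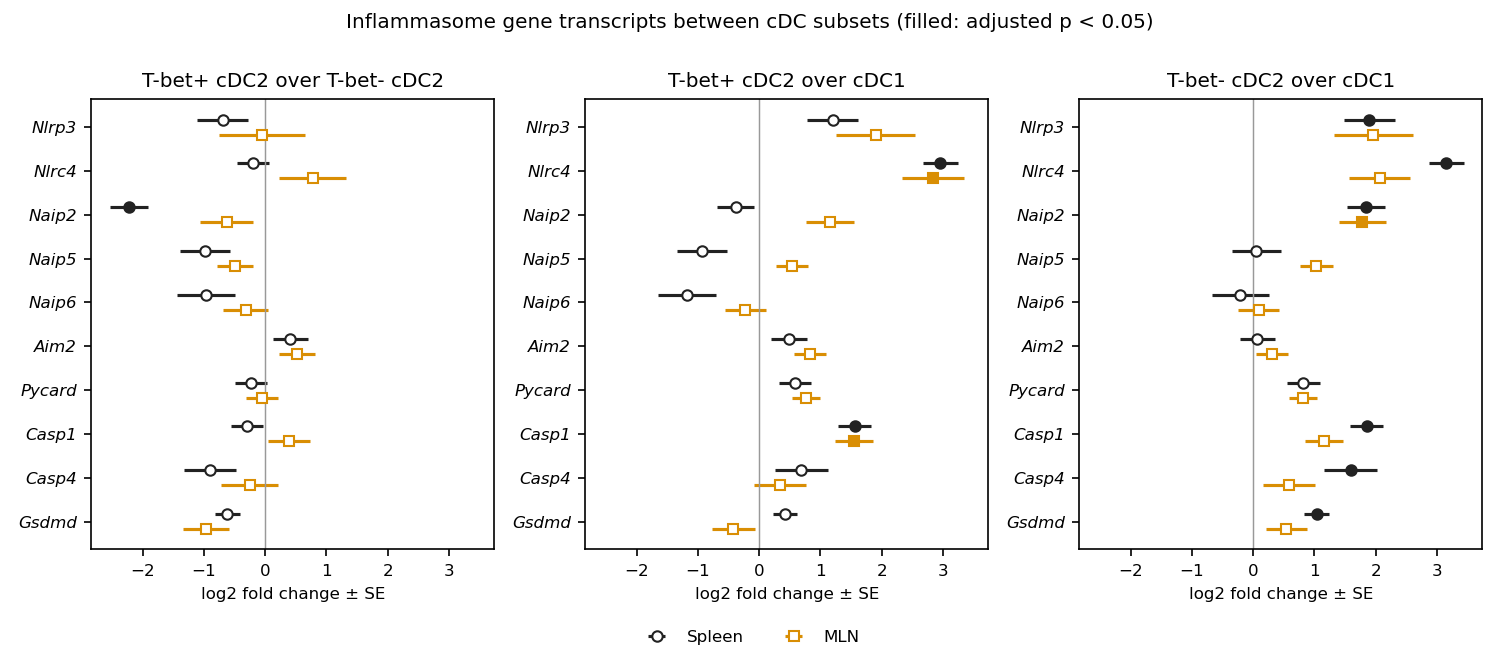
Log2 fold change ± SE of each gene between cDC subsets in spleen (black circles) and MLN (orange squares), with filled symbols for adjusted p under 0.05. In spleen, Naip2 alone is filled between the cDC2 subsets, and 6 genes are filled for T-bet- cDC2s over cDC1s.

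Per length of annotated exons, Gsdmd was the most abundant member in each spleen subset. Casp1 came next in both cDC2 subsets, while in spleen cDC1s its RPKM (15, 12 and 20.2) overlapped that of Pycard (17.8, 12.7 and 16.2) and Aim2 (9.82, 11.7 and 18.8). In spleen T-bet- cDC2s the RPKM, which is CPM per kilobase of exon, was 129 ± 24.2 for Gsdmd, 56.7 ± 10.1 for Casp1, 27.4 ± 9.10 for Pycard and 22.7 ± 11.4 for Nlrp3 (mean ± SD, n = 3), where the last 2 overlapped. Aim2 followed at 14.1 ± 3.59, then Naip2 at 7.59 ± 1.98, Nlrc4 at 5.03 ± 0.748, Naip5 at 4.30 ± 1.93, Casp4 at 3.75 ± 0.283 and Naip6 at 2.13 ± 1.08. The order below Casp1 depends on the length used. Pycard has 3800 bases by both lengths, so its place, also relative to Casp1, was not tested by this change. With the length of the longest coding transcript in place of all annotated exons, the means in the same libraries were 23.7 for Aim2, beside 23.4 for Nlrp3, and 9.69 for Casp4, above 7.81 for Naip2 and 7.66 for Nlrc4. Over annotated exons, in spleen cDC1s Nlrc4 was last, at 0.566 ± 0.0966, and in T-bet+ cDC2s Naip6 was last, at 1.08 ± 0.296.

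As a description over the 16 libraries, which share subset and tissue differences, the transcripts most like Nlrc4 in log2 CPM were Cd72 (r = 0.97), Il31ra (r = 0.97) and AC161409.3 (r = 0.96). Naip2 was most like Lilrb4a (r = 0.95), Clec5a (r = 0.92) and Tnip3 (r = 0.92), and Nlrp3 most like Smyd3 (r = 0.96), Nfam1 (r = 0.95) and Slc43a2 (r = 0.95). Casp1 was most like H3f3a (r = 0.97), RP23-354J3.2 (r = 0.97) and H3f3c (r = 0.97), Pycard most like Gpx1 (r = 0.97), Cuedc2 (r = 0.96) and RP24-91G8.1 (r = 0.95), and Gsdmd most like Necap2 (r = 0.97), Nuak1 (r = 0.96) and Scamp2 (r = 0.95). For Casp4 the nearest were F11r (r = 0.94), RP23-285C18.2 (r = 0.94) and Csf2rb (r = 0.94). Naip5 and Naip6 shared Arhgef6 (r = 0.91 for both), with Tmem170b (r = 0.90) and Adam17 (r = 0.88) beside Naip5 and Pik3c2a (r = 0.95) and Larp4 (r = 0.93) beside Naip6. Aim2 had the lowest likeness, with Cep290 (r = 0.88), RP24-547D11.2 (r = 0.88) and Cdc5l (r = 0.86). Among the members, the highest values were between Casp4 and Gsdmd (r = 0.86), Nlrp3 and Pycard (r = 0.86), Naip5 and Naip6, which share sequence (r = 0.83), and Nlrc4 and Casp1 (r = 0.83).

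Chromatin at these genes was read from 111 accessible windows whose peak had a member as its closest gene within 50 kb, of which 108 passed the filter on low counts. Accessibility at Pycard was not analysed here. A window was called if its adjusted p was below 0.01 and its log2 fold change exceeded 0.5 in size. Between the cDC2 subsets 8 windows were called, 4 higher and 4 lower in T-bet+ cDC2s, where 6.28% of all 166547 windows were called. Against cDC1s, 31 windows were called for T-bet+ cDC2s (17 higher and 14 lower, with 23.0% of all windows called) and 24 for T-bet- cDC2s (14 higher and 10 lower, with 17.9% called). With libraries scaled by their size only, these splits became 3 higher and 5 lower, 12 and 16, and 10 and 10.

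The window at the Nlrc4 start, whose sequence is printed first above, was more accessible in both cDC2 subsets than in cDC1s. It held 2.38 and 2.87 CPM in the cDC1 libraries, 17.8 and 17.1 CPM in T-bet+ cDC2s and 15.9 and 19.8 CPM in T-bet- cDC2s. The cDC2 ranges overlapped and lay far above the cDC1 values, with log2 fold changes of 2.73 ± 0.28 (adjusted p = 5.15e-13) and 2.77 ± 0.28 (adjusted p = 6.33e-13) against cDC1s and -0.04 ± 0.22 (adjusted p = 0.95) between the cDC2 subsets, and both calls held under all 13 alternatives. The neighbouring window, centred 185 bases downstream of the start, was also higher in T-bet+ (1.75 ± 0.45) and T-bet- cDC2s (1.76 ± 0.45), though not without cDC1 replicate 2 (adjusted p of 0.0479 and 0.0563), nor without replicate 2 of the cDC2 subset itself (0.0487 and 0.017). Not all of the gene opened with its start. The 3 windows 16835 to 17119 bases into the gene were lower in both cDC2 subsets, by 1.35 to 2.39 on the log2 scale in T-bet+ and by 1.61 to 2.61 in T-bet- cDC2s, and the middle window held 12 and 13.8 CPM in cDC1s against 2.50 and 2.40 CPM in T-bet+ cDC2s. A window 18447 bases in was more accessible in T-bet+ cDC2s (28.7 and 29.5 against 13.4 and 20.7 CPM in the T-bet- subset, 0.76 ± 0.19, adjusted p = 0.00388), which did not pass without T-bet- replicate 1 (0.50, adjusted p = 0.23).

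The Naip2 intron window was open in T-bet- cDC2s, at 14.4 and 16.7 CPM, and low in T-bet+ cDC2s, at 3.59 and 2.30 CPM, and in cDC1s, at 1.31 and 2.22 CPM. Its difference between T-bet+ cDC2s and the T-bet- subset was -2.40 ± 0.30 on the log2 scale (adjusted p = 5.92e-09), and T-bet- cDC2s exceeded cDC1s by 3.15 ± 0.33 (adjusted p = 4.8e-12), under all 13 alternatives for each. Its partner in the same peak held 3.58 and 1.82 CPM in T-bet- cDC2s and was higher than in cDC1s by 2.38 ± 0.60 (adjusted p = 0.00133), a call lost without T-bet- replicate 1 or either cDC1 library (adjusted p of 0.0137 to 0.0829). This peak was the only one assigned to Naip2, and its windows lie 18605 and 18814 bases downstream of the RefSeq start. Since multiply aligned reads were removed, accessibility in stretches that Naip copies share is uncertain. The windows nearest the starts of Naip5 (8.55 and 7.71 CPM in cDC1s, 9.68 and 11.2 CPM in T-bet+ and 10.8 and 12.6 CPM in T-bet- cDC2s) and Naip6 (4.16 to 7.03 CPM over the 6 libraries) were not called in any comparison.

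**Figure D3:**
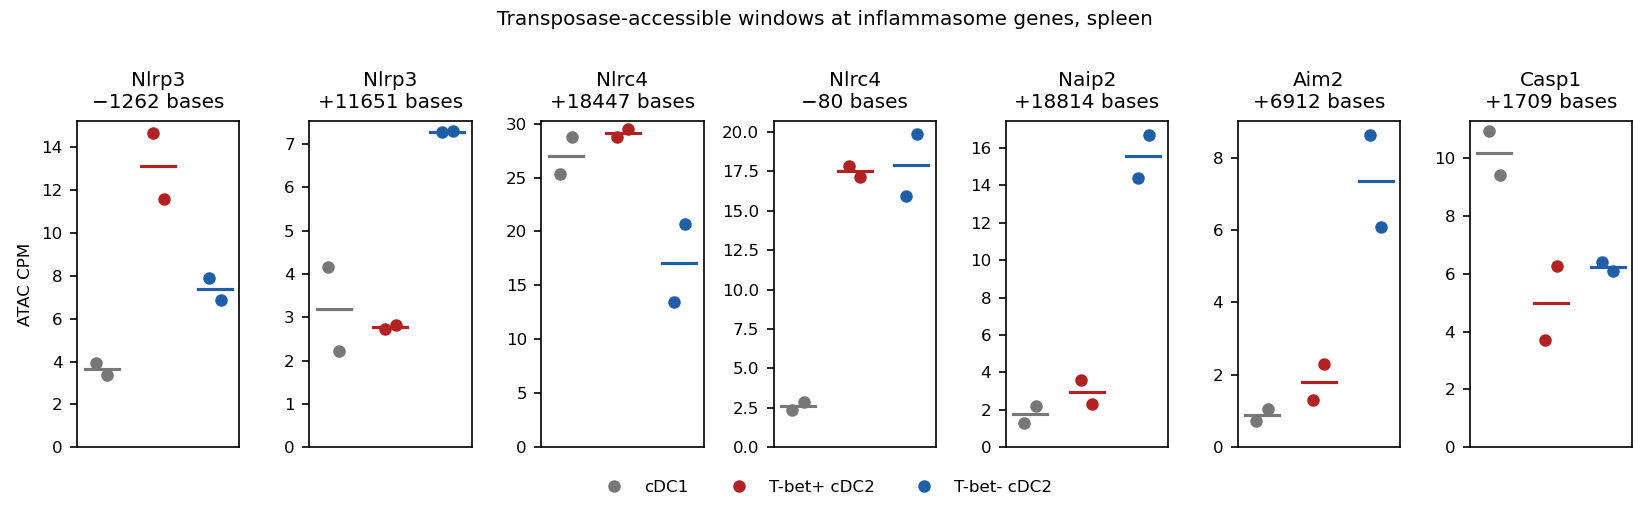
ATAC-seq level (CPM, linear axes from 0) of 7 windows named in the text in cDC1s (grey), T-bet+ cDC2s (red) and T-bet- cDC2s (blue) of the spleen, with 2 libraries each. Points are libraries, lines are means, and panel titles give the gene and the distance from its nearest RefSeq start. The Nlrc4 window at -80 bases is high in both cDC2 subsets, and the Naip2 window in T-bet- cDC2s alone.

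Distances at Nlrp3 are to the nearest of its RefSeq starts, of which the first opens the gene and another lies inside it. The window centred 26 bases upstream of the first start was not called in any comparison. The window centred 25 bases upstream of the inner start was already open in cDC1s, at 16.3 and 19.9 CPM. It was higher in T-bet+ cDC2s (34.5 and 24.8 CPM, 0.71 ± 0.19, adjusted p = 0.00235), but did not pass without T-bet+ replicate 1 (0.47) or cDC1 replicate 1 (0.59). The T-bet- difference was 0.45 ± 0.20 (adjusted p = 0.079). The upstream window printed above, 1262 bases before the first start, was at 3.92 and 3.4 CPM in cDC1s, 14.7 and 11.6 CPM in T-bet+ and 7.89 and 6.88 CPM in T-bet- cDC2s. It rose over cDC1s by 1.84 ± 0.29 (adjusted p = 2.33e-07) and 1.00 ± 0.30 (adjusted p = 0.00779). The T-bet+ call held under all 13 alternatives, and the T-bet- call was lost when any T-bet- or cDC1 library was left out (adjusted p of 0.0186 to 0.0884). The intron window printed above, 11651 bases downstream of the inner start, had the other order. It held 7.27 and 7.29 CPM in T-bet- cDC2s against 2.72 and 2.82 CPM in T-bet+ cDC2s (-1.39 ± 0.34, adjusted p = 0.00241). That call did not pass when any of the 4 cDC2 libraries was left out, with adjusted p up to 0.02 against the threshold of 0.01. In total, 2 of 21 Nlrp3 windows were higher and 4 lower in T-bet+ cDC2s than in cDC1s, and 2 were higher and 2 lower in T-bet- cDC2s.

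At Aim2 the start window was open in all subsets, at 36.9 and 33.8 CPM in cDC1s, 50.4 and 38.8 CPM in T-bet+ and 43.5 and 37.8 CPM in T-bet- cDC2s, and was not called. Intronic windows changed in both directions between the cDC2 subsets. The window printed last, 6912 bases downstream of the start, was at 8.63 and 6.07 CPM in T-bet- cDC2s, 1.31 and 2.30 CPM in T-bet+ cDC2s and 0.713 and 1.04 CPM in cDC1s (-2.01 ± 0.37 between the cDC2 subsets, adjusted p = 5.67e-05). A window 20345 bases downstream was instead higher in T-bet+ cDC2s, at 14.6 and 19.0 CPM against 6.66 and 7.49 CPM (1.24 ± 0.25, adjusted p = 0.000155). Of the 44 windows assigned to Aim2, 12 have Cadm3 as an equally close gene, and these hold 6 of the 13 windows called for T-bet+ and 5 of the 8 called for T-bet- cDC2s over cDC1s.

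Of the 8 windows of Casp1, none was higher in a cDC2 subset, and 4 were lower than in cDC1s in the T-bet+ subset and 3 in the T-bet- subset. All but 1 of these lie 18728 to 23993 bases upstream of the start, and no window near the start was called for T-bet- cDC2s. The window 1709 bases downstream of the start was at 10.9 and 9.40 CPM in cDC1s, 3.70 and 6.27 CPM in T-bet+ and 6.41 and 6.07 CPM in T-bet- cDC2s (-1.02 ± 0.29 for T-bet+ cDC2s over cDC1s, adjusted p = 0.00326). That call was lost without T-bet+ replicate 1 (-0.69, adjusted p = 0.109) or either cDC1 library (adjusted p of 0.057 and 0.0103). Of those upstream, the window 18728 bases away was called under each of 12 alternatives in both comparisons. The window 18952 bases away was called under 5 of 12 for T-bet+ and 7 of 12 for T-bet- cDC2s, and the window 23993 bases away under 12 and 9 of 12. No window of Casp4 (3) or Gsdmd (5) was called in any comparison. The Gsdmd start window was accessible in each subset, at 10.2 to 15.3 CPM over the 6 libraries.

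**Figure D4:**
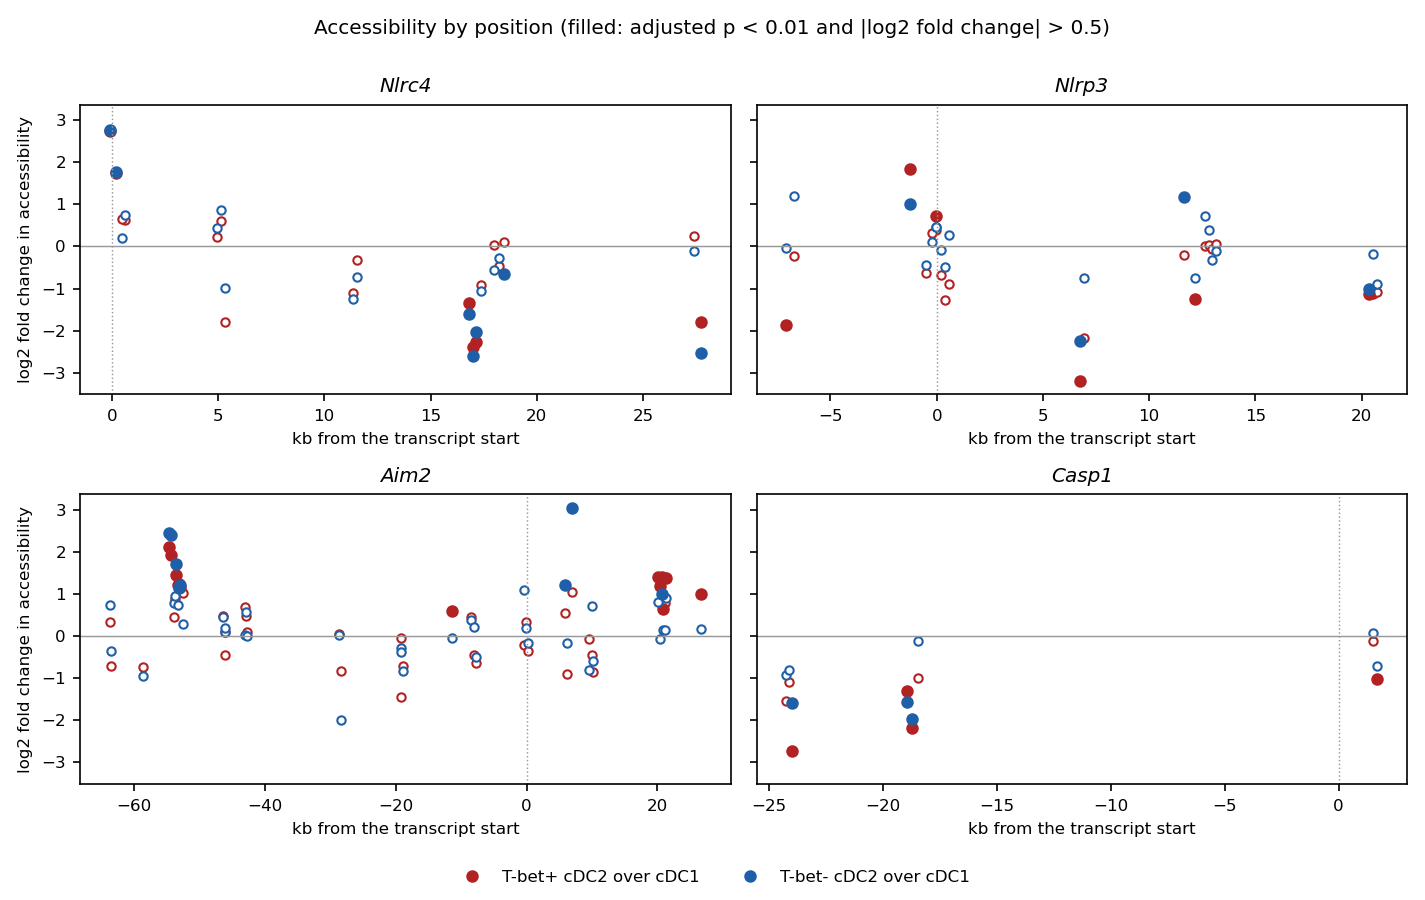
Log2 fold change in accessibility over cDC1s of each window at Nlrc4, Nlrp3, Aim2 and Casp1, for T-bet+ (red) and T-bet- cDC2s (blue). The horizontal axis gives the distance of the window from the nearest RefSeq start of its gene (kb, negative upstream). Filled points are called windows (adjusted p below 0.01, log2 fold change over 0.5 in size). At Nlrc4 the windows at the start are up and those near 17 kb are down in both subsets, and the group of Aim2 windows more than 50 kb upstream includes those shared with Cadm3.

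A search of the windows for 6 fixed strings on both strands gave few matches. The C/EBP string TTGCNNAA occurred in 13 of 111 member windows (11.7%) against 5.89% of all 177956 windows of this length and 10.8% of 32851 RefSeq promoters, which are longer stretches, and the 3 matches in capitals above, in the Nlrc4, Naip2 and Aim2 windows, are among them. The interferon-response string GAAANNGAA occurred in 7.21% of member windows against 5.61% of all, the ETS-IRF string GGAANNGAA in 9.91% against 6.80%, and the Runx string TGTGGTT in 4.50% against 5.23%. The NF-κB string GGGANTTTC and the T-box string AGGTGTNA occurred in no member window, against 0.892% and 1.92% of all windows. GAAANNGAA and GGAANNGAA can match at adjoining positions. These matches are descriptions of letters, not of binding.

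Among 71 other genes of the pathway, 11 passed between the spleen cDC2 subsets, and each was lower in T-bet+ cDC2s, where 5.38% of all genes passed and 3.44% were lower. Of 10 AIM2-like receptors tested, 3 were lower and 7 did not pass (median log2 fold change -0.73). These were Ifi204 (2.25 ± 1.17 against 27.1 ± 8.86 CPM in T-bet- cDC2s, mean ± SD, n = 3), Ifi205 (0.589 ± 0.108 against 16 ± 3.91 CPM) and Mnda (0.371 ± 0.145 against 4.82 ± 0.706 CPM), and the latter pair were higher in cDC1s than in either cDC2 subset, at 355 ± 45.6 CPM for Ifi205. These genes are closely related copies, and the split of their reads is uncertain. Of 14 genes of activation and licensing, 3 were lower and 11 did not pass (median -0.24). They were P2rx7, the ATP receptor upstream of NLRP3 (12.3 ± 0.864 against 48.9 ± 5.12 CPM, -1.99 ± 0.32, adjusted p = 0.00787), and the guanylate-binding protein genes Gbp2 (-1.37 ± 0.25) and Gbp3 (-1.82 ± 0.31), whose products act on intracellular bacteria. The median over all genes tested was -0.01.

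Among 10 IL-1 family genes, 2 were lower in T-bet+ cDC2s. Il1rn, which encodes the IL-1 receptor antagonist, was at 28.5 ± 3.54 CPM in T-bet+ and 337 ± 91.0 CPM in T-bet- cDC2s (-3.56 ± 0.32, adjusted p = 0.00038), and Il1rap, which encodes the accessory chain of the receptor, at 0.869 ± 0.345 and 13.2 ± 7 CPM (-3.91 ± 0.65, adjusted p = 0.0091). The substrates of caspase-1 did not pass between the cDC2 subsets. Il1b was at 5391 ± 444 CPM in T-bet+ and 7413 ± 2116 CPM in T-bet- cDC2s (-0.46 ± 0.23, adjusted p = 0.323), and both exceeded the 1890.1 ± 322 CPM of cDC1s (1.52 ± 0.23 and 1.97 ± 0.23, adjusted p of 0.00163 and 0.000405). Il18 was at 23.6 ± 0.53 and 31.6 ± 6.94 CPM in the same cDC2 subsets (-0.42 ± 0.23, adjusted p = 0.383) and 19.8 ± 1.94 CPM in cDC1s. Il1a was at 1.73 ± 1.39 and 8.83 ± 4.87 CPM (-2.34 ± 0.81, adjusted p = 0.148), without overlap (0.166 to 2.81 against 4.72 to 14.2 CPM). In the MLN it was at 0.452 to 2.08 CPM in T-bet+ and 18.6 to 23.0 CPM in T-bet- cDC2s. The paper reports significantly higher Il1a in T-bet- cDC2s and lists it among the genes that define them.

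Of 12 caspases and death executors, 2 were lower in T-bet+ cDC2s and 10 did not pass (median -0.55). The 2 were Ripk3 (30.2 ± 1.52 against 75.3 ± 14.2 CPM) and Mlkl (1.32 ± 0.295 against 6.64 ± 2.39 CPM), the kinase and the membrane executor of necroptosis. Spleen cDC1s held 67.8 ± 9.39 CPM of Ripk3 and 2.48 ± 0.779 CPM of Mlkl. None of 11 inhibitors and none of 5 other sensors passed. Of 9 transcriptional regulators 1 passed, Irf8, a factor that cDC1s depend on. It was at 63.4 ± 12.8 CPM in T-bet+, 285 ± 150 CPM in T-bet- cDC2s and 3531 ± 725 CPM in cDC1s. The part of the Clec9a-bearing T-bet- libraries in the differences of Irf8, Ifi205 and Mnda was not tested. Against the MLN the direction was not uniform. Il1b was lower in the MLN than in the spleen in all 3 subsets (-2.12 ± 0.42 in cDC1s, -1.84 ± 0.48 in T-bet+ cDC2s, -1.89 ± 0.48 in the T-bet- subset), while Gbp2 was higher in all 3 (2.56 ± 0.55, 3.93 ± 0.60 and 2.93 ± 0.58). The MLN T-bet+ libraries held 158 and 883 CPM of Gbp2 against 31 to 35.7 CPM in the spleen, and without replicate 2 the difference was 2.2 (adjusted p = 0.106). The Gbp2 call was also lost in cDC1s without MLN replicate 2 or spleen replicate 1 or 2 (adjusted p of 0.0519 to 0.0629), and in the T-bet- subset without MLN replicate 1 or spleen replicate 2 (0.0784 and 0.0531). Of 10 AIM2-like receptors, 6 were higher in MLN cDC1s, 9 in MLN T-bet+ cDC2s and 1 in MLN T-bet- cDC2s, and none was lower, where 7.75%, 3.79% and 4.36% of all genes were higher. The 9 became 2 without MLN T-bet+ replicate 2 and 2 to 4 without 1 of the spleen T-bet+ libraries, the 6 became 3 without spleen cDC1 replicate 2, and the 1 became 0 without any 1 T-bet- library.

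**Figure D5:**
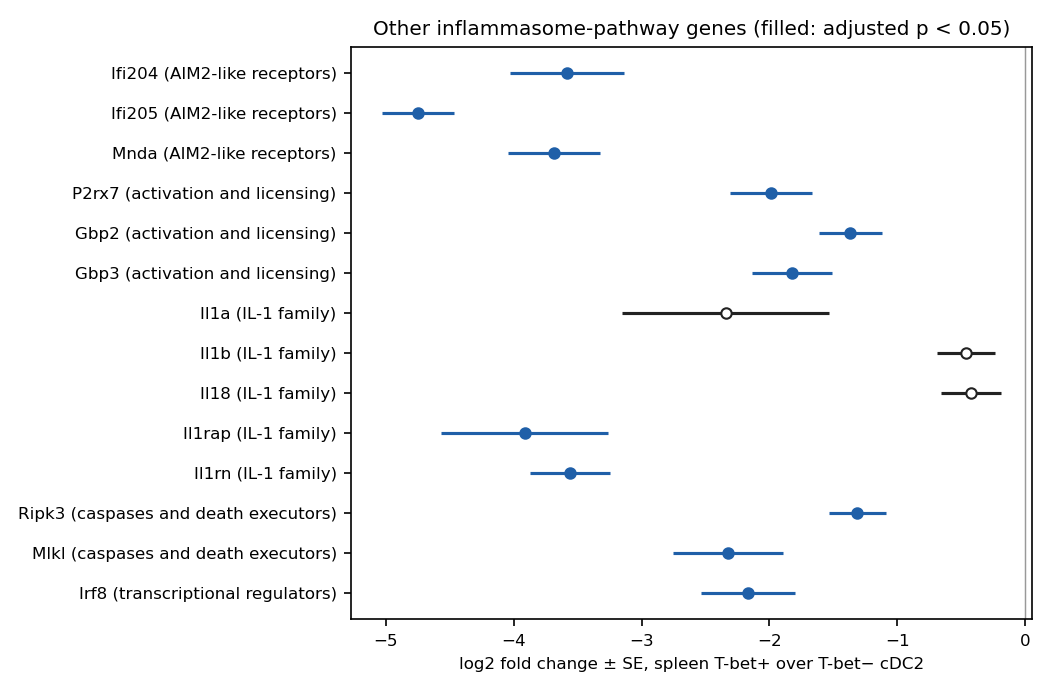
Log2 fold change ± SE between spleen T-bet+ and T-bet- cDC2s for 14 named genes of the pathway lists, filled for adjusted p under 0.05. All 11 filled genes lie to the left, lower in T-bet+ cDC2s, and Il1a, Il1b and Il18 are open.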

How the data were processed

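RNA-seq counts, as deposited by the authors, are whole reads per gene: reads were aligned to mm10 (GRCm38) with HISAT2 2.1.0 and unique alignments were counted on GENCODE genes without normalization. ATAC-seq counts deposited by the authors are reads in MACS2 windows and peaks called on all replicates together, after Bowtie2 alignment and shifting of ends for the transposase. The score column of the authors' peak file is a constant and their −log10 p values come from the peak caller, and neither was used. The authors' strand setting is not given in the sources used here. Samples were grouped by the labels, which give RFP+ cells as T-bet+ where one methods sentence has the reverse.

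From these counts, edgeR 4.0.16 (R 4.3.3; TMM, filterByExpr) was fitted to 9 spleen libraries (14377 genes), 7 MLN libraries (15298) or all 16 (16795, for tissue and interaction), and to 6 ATAC-seq libraries. DESeq2 1.42.0, other scaling and filters, a block on replicate number and leaving out each library were alternatives. Scripts were tested on simulated data. Libraries were not duplicates. RNA-seq was performed once, so p-values measure the spread between these libraries, and counting depth sets only part of it. A replicate number marks no shared animal or day in the labels. Positions come from GENCODE M21 and starts from RefSeq, with distances taken to the nearest start where a gene has several. Members and gene lists were chosen with earlier results of these data known. Pathway genes were named when past the threshold between spleen cDC2 subsets if they averaged 50 or more normalized counts over the spleen libraries, up to 4 per list by size of change, with Irf8, Il1a, Il1b and Il18 always.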

Additional observations from a re-analysis of the deposited data

How the results depend on the processing

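In the spleen, the number of members called was 1 or 2 between T-bet+ and T-bet- cDC2s (Gsdmd was added without T-bet- replicate 3). For T-bet+ cDC2s over cDC1s it was 2 to 4, with Nlrp3 added by DESeq2 and with only the libraries of the compared subsets, Nlrp3 and Naip6 (lower) when genes of low counts were kept (4), and Nlrp3 and Gsdmd with library class as a term (4). For T-bet- cDC2s over cDC1s it was 5 to 7, and a replicate block lost Nlrp3 (1.81, adjusted p = 0.0539). Library class splits libraries by their correlation with transcript GC content. The higher class held each spleen T-bet+ library (0.19 to 0.24), T-bet- replicate 3 (0.28) and cDC1 replicates 1 and 2 (0.25 and 0.33). The lower class held T-bet- replicates 1 and 2 (-0.46 and -0.31) and cDC1 replicate 3 (-0.30). Library class as a term therefore overlaps in part with subset. Between the cDC2 subsets, uncalled values changed sign for Casp1 (0.0746) and Pycard (0.0255) with that term and for Pycard (-0.495 to 0.0739) over the libraries left out, the highest without T-bet- replicate 2. Counts in the MLN, with 2 or 3 libraries a group, depended on the setting. For MLN T-bet+ cDC2s over cDC1s they were 5 with DESeq2, 4 without a filter, 1 with only the libraries of the compared subsets, 1 with a replicate block on the number in the labels, 6 with a block on the number in the library names, and 0 to 4 with 1 library left out. For MLN T-bet- cDC2s over cDC1s they were 6 with DESeq2, 2 with edgeR's newer quasi-dispersion estimate (chosen after seeing the data), 4 without a filter, 0 and 6 with the same blocks, and 0 to 2 with 1 library left out. Same-numbered libraries did not all deviate together in spleen (r of -0.41 to 0.14) or, by the labels, in MLN (-0.0774 to 0.382). By the number in the library names, each same-numbered MLN pair had a positive r (0.0255 to 0.382). The labels give no shared mice, so the numbers were not taken as pairs in the main fit, and whether MLN libraries are paired is not settled. With 1 library left out, MLN over spleen gave 0 to 4 members in cDC1s, 0 to 2 in the T-bet+ subset and 0 in the T-bet- subset (1 without a filter, in the last), and the MLN cDC2 comparison and the 3 differences between tissues gave 0 throughout.

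For accessibility, DESeq2 called 5, 18 and 12 windows (T-bet+ over T-bet- cDC2s, T-bet+ over cDC1s, T-bet- over cDC1s), whole peaks gave 16 and 12 for the last 2, and leaving out 1 library gave 4 to 8, 17 to 32 and 13 to 24. The fewest came without T-bet- replicate 2 or T-bet+ replicate 1, and without cDC1 replicate 1 for both comparisons with cDC1s. Scaling by library size only moved the median of all windows by -0.18 for T-bet+ cDC2s over cDC1s. The cause of these shifts was not tested. No called member or window changed sign.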
